A study of Mus musculus with 8 samples.

Results

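The kappa light chain V segments (gene symbols starting with Igkv) were followed in NP+IgDlowB220+ pre-GC B cells, antigen-binding B cells taken before germinal centers form. The rule was the gene symbol alone and used no measured value. It found 124 segments among the 24259 genes of the count table, and each of the 124 had a count in at least 1 library. The B cells came from lymph nodes of CD45.1 Sap-/- recipients on the C57BL/6 strain, 3 days after immunization with NP-OVA plus LPS in alum. Sap-/- hosts cannot give normal T cell help to B cells, so help came from transferred OT-II T cells, which recognize an ovalbumin peptide. In the HET group (n = 4 libraries) these helpers were CD4-CrexBcl6fl/+, with Cre under Cd4 control and 1 floxed allele of Bcl6. In the WT group (n = 4 libraries) they carried CD4-Cre with no floxed Bcl6 allele. The Bcl6 deletion was thus in the transferred T cells, not in the sequenced B cells, and the age of the animals was not given in the sources used here. B cells from all recipients of a group were pooled and sorted into 4 repeats of about 200 cells. The 4 libraries of a group are therefore repeats of 1 pool, p-values measure the spread between sorts, and the effect of the helpers and the difference between the 2 pools cannot be told apart.

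A kappa light chain gene is made when 1 of the Igkv segments is joined to 1 of the J segments beside the constant segment Igkc. Segments lie in both orientations, so joining proceeds by deletion or by inversion of the DNA between them. The choice of V segment fixes most of the antigen-contacting surface of the light chain, and C57BL/6 mice are known to use lambda light chains often in the response to NP. The counts of a segment depend both on how many of the sorted cells carry it and on how much RNA each of them holds, and fewer cells and less RNA per cell cannot be told apart in these bulk libraries.

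The 124 segments all matched GENCODE release M21 on GRCm38, where they lie on chromosome 6. There, 97 are annotated as V genes and 27 as pseudogenes. For the 6 segments with the highest mean share of Igkv counts, the last bases of the V exon are shown, because this stretch enters CDR3, the part of the light chain where the V segment meets J. Capitals mark the bases after the codon of the conserved cysteine that precedes CDR3. The sequences are germline, from GENCODE M21 transcripts, 5′ to 3′ on the coding strand.
Igkv8-30: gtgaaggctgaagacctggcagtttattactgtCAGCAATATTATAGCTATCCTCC
Igkv10-96: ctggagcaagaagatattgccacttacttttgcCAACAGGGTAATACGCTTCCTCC
Igkv9-120: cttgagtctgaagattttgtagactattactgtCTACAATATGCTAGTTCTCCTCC
Igkv1-110: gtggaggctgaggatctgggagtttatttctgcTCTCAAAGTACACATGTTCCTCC
Igkv8-21: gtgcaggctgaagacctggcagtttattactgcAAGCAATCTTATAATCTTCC
Igkv1-117: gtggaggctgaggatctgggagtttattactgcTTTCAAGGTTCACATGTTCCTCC

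These segments lie at chr6:70117061-70117620 (minus strand, Igkv8-30), chr6:68631963-68632442 (minus, Igkv10-96), chr6:68049983-68050456 (plus, Igkv9-120), chr6:68270485-68271267 (plus, Igkv1-110), chr6:70314895-70315472 (minus, Igkv8-21) and chr6:68121046-68121827 (plus, Igkv1-117). Each span covers the leader exon, a short intron and the V exon. Igkv8-30 and Igkv8-21, the pair with the highest shares in any library, belong to 1 family. Their V exons aligned over 316 columns, of which 25 differed, an identity of 92.1%. The last 300 coding bases of each V exon follow, with the differing positions in capitals.
Igkv8-30: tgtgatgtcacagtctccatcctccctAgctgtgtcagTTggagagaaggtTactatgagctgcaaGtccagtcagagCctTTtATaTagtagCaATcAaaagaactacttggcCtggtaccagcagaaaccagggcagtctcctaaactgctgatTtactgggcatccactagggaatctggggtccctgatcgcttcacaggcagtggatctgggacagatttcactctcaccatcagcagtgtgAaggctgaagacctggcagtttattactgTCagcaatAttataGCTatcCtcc
Igkv8-21: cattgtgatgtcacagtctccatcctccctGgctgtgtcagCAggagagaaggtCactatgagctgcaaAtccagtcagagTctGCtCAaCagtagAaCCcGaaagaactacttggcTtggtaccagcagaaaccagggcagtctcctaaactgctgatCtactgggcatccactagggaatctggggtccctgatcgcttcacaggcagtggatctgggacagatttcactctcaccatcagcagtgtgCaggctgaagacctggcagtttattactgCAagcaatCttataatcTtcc

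Many members were more alike than this pair. The median identity of a segment to its nearest other Igkv segment was 92.9% (range 66.8 to 99.0%), 45 of 124 had a neighbor at 95% or more, and 31 shared an identical run of at least 100 bases with another Igkv segment. Igkv1-110 and Igkv1-117 were 96.8% identical, with an identical run of 142 bases, and Igkv4-68 and Igkv4-61 were 96.4% identical. The longest identical run of Igkv8-30 with any other Igkv segment was 90 bases, shared with Igkv8-21, whose own longest run was the same. How reads that fit several segments were counted is not given in the sources used here, so shares of the close copies are uncertain.

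The libraries held 6652386 to 12559189 counts in all, of which 13379 to 92704 were Igkv counts. SMART-Seq2 reads carry no molecular identifiers, so intervals and floors below cover counting error only. A floor of 3 counts was 0.00324% of Igkv counts in the deepest library and 0.0224% in the shallowest, and the widest 95% Wilson interval of a named segment's share was 1.05 percentage points. All 6 B cell markers were present, with summed levels of 10054 to 11299 CPM (read counts relative to library size, scaled by TMM factors) in HET and 11836 to 12664 in WT. The 7 naive follicular B cell markers summed to 3892 to 4730 CPM in HET and 5015 to 5237 in WT. Among them Ighd, which encodes the heavy chain of IgD, was at 1377 to 2049 CPM, although the cells were sorted as IgDlow. Both sums lay lower in every HET library than in any WT library, and the cause was not tested. T cell markers summed to 163 to 503 CPM over all libraries. Myeloid markers summed to 442 CPM in WT replicate 2, of which 399 CPM was Lyz2 alone, and to 37.9 to 113 CPM elsewhere. The part of T and myeloid cells in the Igkv results was not tested. HET replicate 1 stood apart in its Igkv counts, so results are also given without it.

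Igkv counts made up a small and, apart from HET replicate 1, even part of each library. Their percentage of all counts was 0.738, 0.237, 0.230 and 0.1996 in HET replicates 1 to 4. In WT replicates 1 to 4 it was 0.289, 0.230, 0.234 and 0.274. HET replicate 1 was the highest of all, and the other 7 libraries overlapped. The means were 0.351 ± 0.258 in HET and 0.257 ± 0.0294 in WT (SD, n = 4 each), and the exact two-sided permutation test gave p = 0.886 (adjusted p = 0.886 over 5 repertoire summaries). The smallest p that 4 against 4 libraries allow is 0.0286, which adjusts to 0.143 over the 5 where 1 summary alone differs, so a lone summary could not pass after adjustment. The difference was 0.0945 percentage points, and -0.0345 without HET replicate 1.

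Igkc, the constant segment shared by every kappa chain, moved with this sum. Igkc stood at 12387, 4446, 4650 and 3908 CPM in HET and at 5456, 4529, 4303 and 5134 CPM in WT. There were 0.494 to 0.602 Igkv counts for each Igkc count, with the highest ratio in HET replicate 1 and 0.509 to 0.538 in the 4 WT libraries. The log2 fold change of Igkc (HET over WT) was 0.39 and did not pass edgeR's test (adjusted p = 0.892).

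Kappa V counts exceeded lambda V counts in 7 of 8 libraries. The share of kappa among all light chain V counts (Igkv plus the 3 Iglv segments, not scaled per length) was 83.3, 64.6, 65.4 and 49.1% in HET replicates 1 to 4. In WT replicates 1 to 4 it was 67.3, 64.9, 56.9 and 61.4%. HET held both the highest and the lowest library, with means of 65.6 ± 13.98% and 62.6 ± 4.52% (SD, n = 4 each) and p = 0.714 by the exact two-sided permutation test (adjusted p = 0.886). In HET replicate 4, the library with the lowest kappa share, Iglv1 stood at 1792 CPM. Its level was 685 to 973 CPM in HET replicates 1 to 3 and 714 to 1335 CPM in WT. Iglc1, the constant segment to which Iglv1 joins, stood at 2128 CPM there and at 744 to 1495 CPM elsewhere. Iglv2 was highest in WT replicate 4, at 916 CPM, against 187 to 536 CPM in the other 7 libraries.

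**Figure D1:**
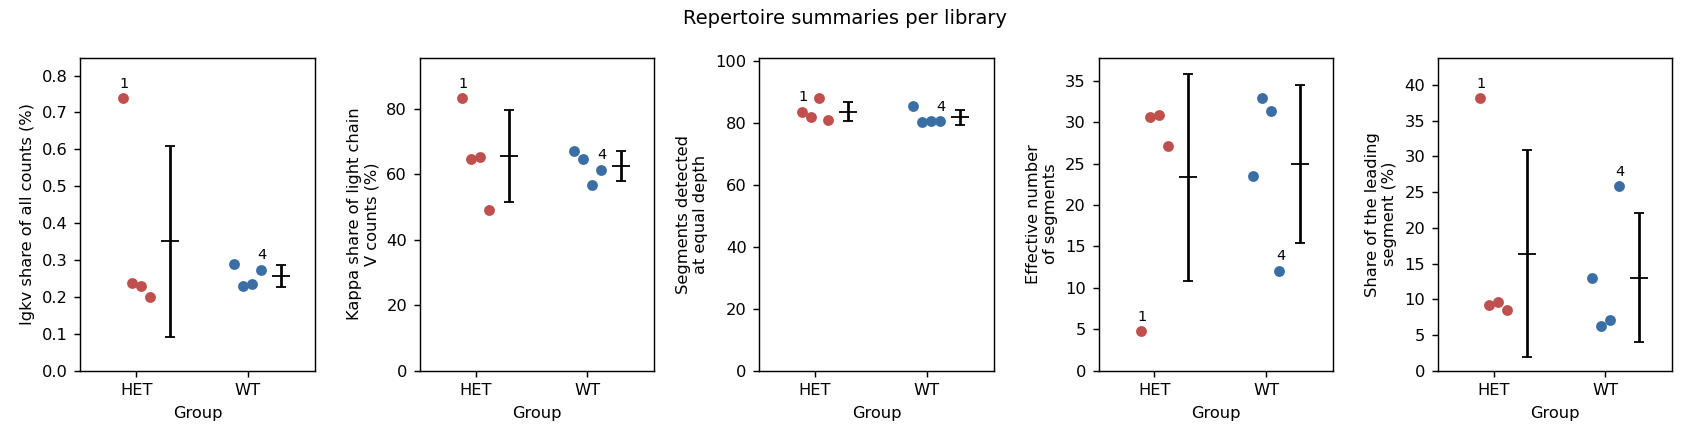
The 5 repertoire summaries of the Igkv segments: their share of all counts (%), the kappa share of light chain V counts (%), segments at equal depth, the effective number of segments and the share of the leading segment (%). Points are libraries (n = 4 each, with HET replicate 1 and WT replicate 4 numbered), and bars give the mean ± SD. HET replicate 1 lies apart at 0.738% of all counts, an effective number of 4.75 and a leading share of 38.1%, and the groups overlap in every panel.

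The repertoire was broad in number. Libraries held 81 to 96 segments with at least 1 count, and the library with most Igkv counts, HET replicate 1, held the most. When every library was reduced to 13379 Igkv counts, the expected number was 83.6, 81.8, 87.9 and 81 in HET and 85.3, 80.4, 80.7 and 80.5 in WT. The means were 83.6 ± 3.07 and 81.7 ± 2.41 (SD, n = 4 each), with p = 0.429 by the exact two-sided permutation test (adjusted p = 0.886). In all, 44 segments had a count in every library, 2 of them pseudogenes, and 13 had a count in 1 library, 6 of them pseudogenes. Pseudogenes held 0.379 to 2.23% of Igkv counts.

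Dominance separated single libraries rather than groups. The effective number of segments (inverse Simpson index, the number of equally used segments that would give the same concentration) was 4.75, 30.6, 30.9 and 27.1 in HET replicates 1 to 4. In WT replicates 1 to 4 it was 23.5, 32.9, 31.3 and 12.02. HET replicate 1 was the lowest and WT replicate 4 the next, so both groups held a dominated library. The means were 23.3 ± 12.5 and 24.9 ± 9.53 (SD, n = 4 each), with p = 0.771 by the exact two-sided permutation test (adjusted p = 0.886). The difference, -1.60, became 4.59 without HET replicate 1, 1.05 without WT replicate 2 and 0.534 without WT replicate 3.

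The leading segment of a library held 38.1, 9.23, 9.69 and 8.54% of its Igkv counts in HET, and 12.97, 6.27, 7.15 and 25.8% in WT. Group means were 16.4 ± 14.5% and 13.05 ± 9.003% (SD, n = 4 each), with p = 0.714 by the exact two-sided permutation test (adjusted p = 0.886). Without HET replicate 1 the difference was -3.89 percentage points. The 3 leading segments together held 71.7% in HET replicate 1, 34.3% in WT replicate 4 and 18.2 to 26.7% in the other 6 libraries. At least 1% of Igkv counts was held by 10 segments in HET replicate 1 and by 25 to 35 segments in the others.

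**Figure D2:**
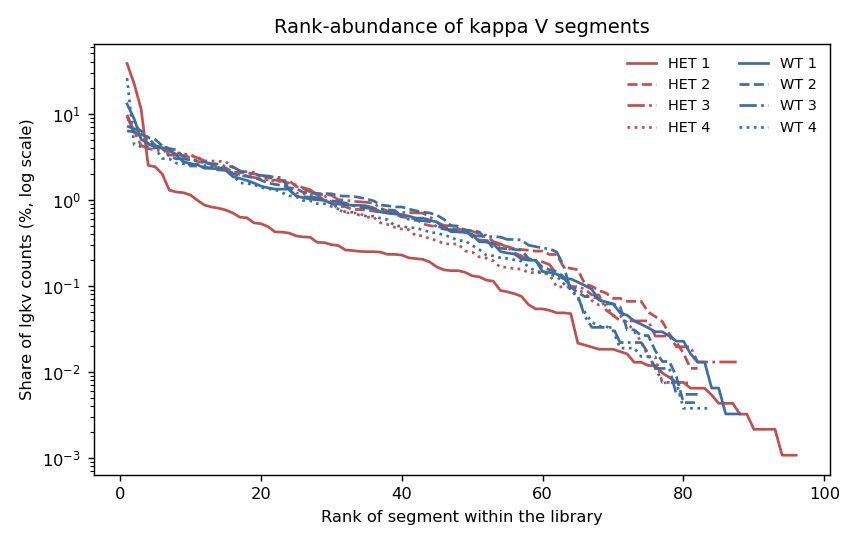
Share of Igkv counts (%, log axis) against the rank of the segment within its library, 1 line per library. HET replicate 1 starts at 38.1% and WT replicate 4 at 25.8%, while the other libraries start between 6.27 and 12.97%.

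Across the libraries the 12 segments with the highest mean share held 41.1 to 82.5% of Igkv counts (mean 51.5%). On the deposited TPM scale, which accounts for transcript length, 10 of these 12 were also among the 12 leading segments, and Igkv8-30 came first on both. Igkv8-30 led HET replicate 1, WT replicate 1 and WT replicate 4. Igkv9-120 led HET replicates 2 and 4 and WT replicate 3, Igkv10-96 led HET replicate 3 and Igkv1-117 led WT replicate 2.

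Igkv8-30 varied widely. Its share was 38.1, 2.07, 2.21 and 0.209% in HET replicates 1 to 4 and 12.97, 3.80, 1.91 and 25.8% in WT replicates 1 to 4. The 95% Wilson interval was 37.8 to 38.4% in HET replicate 1 and 0.145 to 0.302% in HET replicate 4, so counting error was small beside the spread between repeats of 1 pool. Its level was 2841, 48.7, 50.8 and 4.25 CPM in HET and 379, 87.6, 44.0 and 712 CPM in WT, and the groups overlapped throughout. The log2 fold change was 1.27 (SE 1.94, edgeR adjusted p = 0.931), and it was -3.14 without HET replicate 1.

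Igkv8-21, the second segment of HET replicate 1, was absent from the counts of other repeats of the same pool. Its share was 22.3% in HET replicate 1 and 6.01% in HET replicate 2, with 0 of 15330 and 0 of 13379 Igkv counts in HET replicates 3 and 4. By the floor of 3 counts, those zeros allow up to 0.0196% and 0.0224% of Igkv counts. These floors cover counting error only and set no limit on the share of cells in the pool. In WT replicates 1 to 4 its share was 0.611, 5.28, 0.346 and 1.39%. The log2 fold change was 3.28 (SE 2.28, edgeR adjusted p = 0.825), and it was 0.034 without HET replicate 1.

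Igkv1-110, the third segment of HET replicate 1, was used in every library. Its share was 11.2, 5.45, 1.64 and 3.98% in HET and 4.05, 5.77, 3.96 and 2.61% in WT. Its level in HET replicate 1, 837 CPM, was above the 37.8 to 133 CPM of the other 7 libraries, and its log2 fold change was 1.39 (SE 1.003, edgeR adjusted p = 0.834), or -0.33 without that library.

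The higher Igkv level of HET replicate 1 lay in these 3 segments, which are summed here because they led that library. Their sum was 5341 CPM there, 85.1 to 319 CPM in HET replicates 2 to 4 and 143 to 823 CPM in WT. The other 121 segments summed to 2112, 2036, 2208 and 1944 CPM in HET and to 2408, 1964, 2157 and 1939 CPM in WT, so HET replicate 1 lay within the range of the rest. With the 3 segments left out, the effective number in HET replicate 1 was 26.9, beside 25.97 to 29.2 in HET replicates 2 to 4 and 28.2 to 31.7 in WT. With Igkv8-30 alone left out, WT replicate 4 went from 12.02 to 32.99, the highest of the 8, while HET replicate 1 stayed the lowest at 5.86.

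Genes of antibody-secreting cells moved with these libraries in part. Jchain, which joins the chains of secreted IgM, stood at 1576, 25.1, 10.5 and 97.1 CPM in HET and at 41.6, 0.813, 0.505 and 94.8 CPM in WT. The 12 antibody-secreting cell markers summed to 2595 CPM in HET replicate 1 (1019 without Jchain), 961 in HET replicate 4, 879 in WT replicate 4 and 448 to 587 in the other 5 libraries. Prdm1, which encodes the regulator Blimp-1, was at 10.2 CPM in HET replicate 1 and 10.9 CPM in WT replicate 4, the libraries led most strongly by Igkv8-30, and at 0.1498 to 3.15 CPM elsewhere. Of the 12 markers, 9 were highest within their group in HET replicate 1 and 7 in WT replicate 4. Others did not follow, such as Sdc1, the surface marker CD138, at 23.8 CPM in WT replicate 4 and 40.3 CPM in WT replicate 2, and Slamf7, at 69.5 CPM in WT replicate 4 and 73.2 to 101 CPM in WT replicates 1 to 3. Over all 8 libraries, 6 of the 12 markers were highest in HET replicate 1, 3 in HET replicate 4, and 1 each in WT replicates 1, 2 and 4. HET replicate 4 held 97.1 CPM of Jchain and the lowest share of Igkv8-30. Without Jchain the markers summed to 864 CPM in HET replicate 4 and 784 CPM in WT replicate 4. WT replicate 1, also led by Igkv8-30 (12.97%), held 0.475 CPM of Prdm1. The part of antibody-secreting cells in the dominance was not tested.

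**Figure D3:**
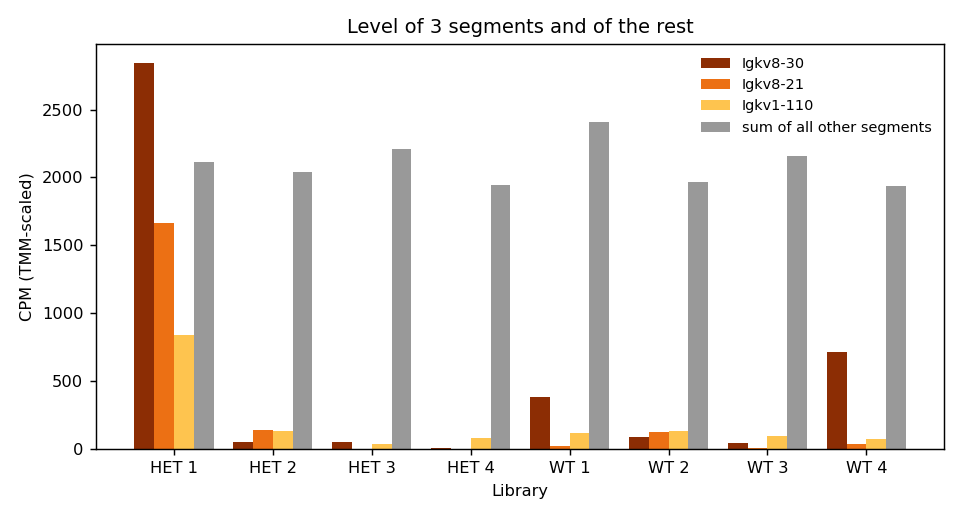
Level in CPM (TMM-scaled, linear axis) of Igkv8-30, Igkv8-21, Igkv1-110 and the sum of the other 121 segments in each of the 8 libraries. Igkv8-30 reaches 2841 CPM in HET replicate 1 and 712 CPM in WT replicate 4, while the grey bars of the remaining segments stay between 1939 and 2408 CPM.

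Igkv10-96 and Igkv9-120 were used in every library. Igkv10-96 held 2.51, 4.004, 9.69 and 8.29% of Igkv counts in HET and 2.63, 6.16, 5.25 and 4.13% in WT. Igkv9-120 held 1.29, 9.23, 3.65 and 8.54% in HET and 2.28, 3.93, 7.15 and 4.12% in WT. With Igkv1-110, Igkv6-15 and Igkv1-135, these were the 5 segments at 1% or more in every library. Igkv1-117 held 0.410, 2.35, 1.30 and 5.74% in HET and 8.71, 6.27, 6.67 and 3.01% in WT, a log2 fold change in CPM of -1.46 (SE 0.55) with groups that overlapped and edgeR adjusted p = 0.627. In all, 54 segments reached 1% in some library, 9 reached 5% and 3 reached 10%.

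**Figure D4:**
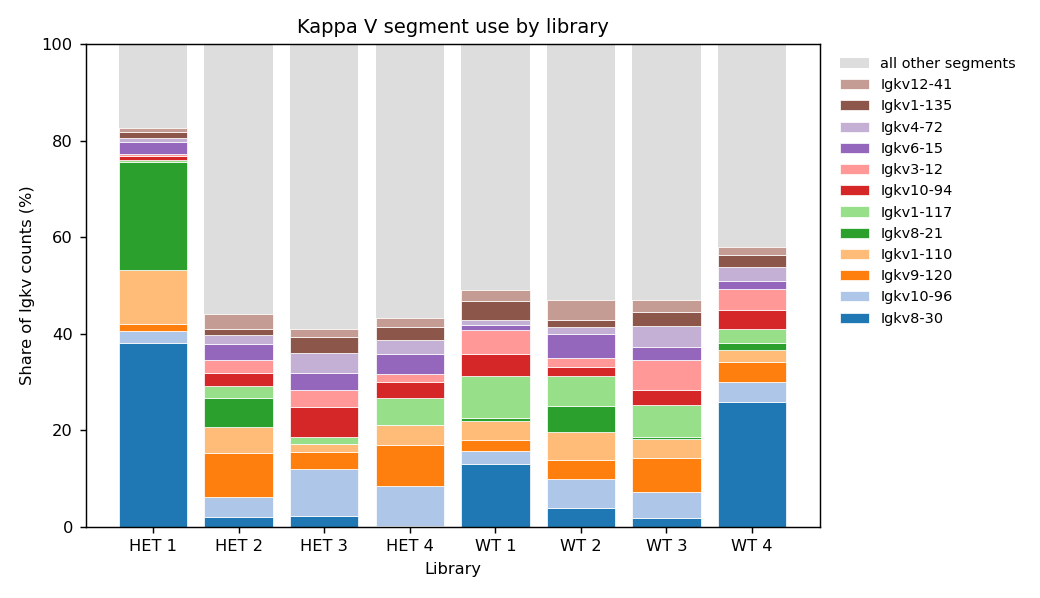
Share of Igkv counts (%) of the 12 leading segments in each library as stacked bars, with the remaining segments in grey. Igkv8-30, Igkv8-21 and Igkv1-110 take 71.7% of HET replicate 1, and Igkv8-30 takes 25.8% of WT replicate 4.

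The comparison of HET with WT over single segments asked whether B cells helped by either kind of T cell used different kappa segments. Of the 124 segments, 76 passed edgeR's filter on low counts, 4 of them pseudogenes, and 48 were not tested. None passed at an adjusted p under 0.05 in edgeR's quasi-likelihood test (lowest adjusted p = 0.446), beside 0.0235% of the 12744 genes tested. DESeq2 also called 0 of the 92 segments with an adjusted p (lowest adjusted p = 0.118), beside 0.581% of the 15149 genes with an adjusted p. At an unadjusted DESeq2 p under 0.05 there were 16 of the 119 segments with a p (13.4%), beside 5.65% of all genes with a p. Of the 76, 39 had a higher and 37 a lower fitted level in HET, with a median log2 fold change of 0.02. Their median absolute log2 fold change was 0.80, against 0.22 over all genes tested.

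At an unadjusted edgeR p under 0.05, 3 segments were higher in HET (3.95% of those tested, against 3.34% of all genes) and 6 were lower (7.89%, against 3.88%). No segment was higher in HET with groups that did not overlap, beside 1.99% of all genes. Lower in HET without overlap were 2 of 76 (2.63%), beside 2.62% of all genes. These shares of non-overlapping segments were near the background.

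The 2 segments whose groups did not overlap were Igkv2-109 and Igkv4-68. Igkv2-109 (chr6:68302427-68303158, plus strand) stood at 39.2, 19.6, 34.2 and 22.7 CPM in HET and at 45.7, 52.3, 41.9 and 71.3 CPM in WT. All 4 HET values lay under the lowest WT value, and the log2 fold change was -0.86 (SE 0.25, edgeR adjusted p = 0.446). Igkv4-68 (chr6:69304834-69305405, minus strand) stood at 3.86, 1.94, 18.3 and 0 CPM in HET and at 26.5, 54.05, 41.6 and 65.3 CPM in WT. HET replicate 3 was the nearest to WT, and the log2 fold change was -2.98 (SE 1.05, edgeR adjusted p = 0.612). By the floor of 3 counts, the zero in HET replicate 4 allows up to 0.0224% of its Igkv counts, which covers counting error only.

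Igkv4-79, the other segment among the 3 with the lowest p on that side, stood at 11.2, 1.55, 2.25 and 1.97 CPM in HET and at 20.4, 19.0, 13.3 and 9.19 CPM in WT. HET replicate 1 alone overlapped WT, and the log2 fold change was -1.83 (SE 0.58, edgeR adjusted p = 0.533). When HET replicate 1 and WT replicate 4 were both left out, a choice made after seeing the data, it became the 1 segment called (log2 fold change -3.18, edgeR adjusted p = 0.0406). In that fit 0.0317% of all 12630 genes tested were called. The libraries left out held its highest HET value and its lowest WT value, so leaving them out removed the overlap by itself. No conclusion is drawn from this call. The nearest copy of Igkv4-79, Igkv4-78, was 96.1% identical to it, with an identical run of 137 bases.

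On the other side, the 3 lowest p-values belonged to Igkv2-116, Igkv4-57 and Igkv10-96. The pseudogene Igkv2-116 was rare, at 0.910 to 11.4 CPM in HET and 0 to 1.73 CPM in WT, with 0 counts in WT replicates 3 and 4. Its log2 fold change was 2.99 (SE 1.12, edgeR adjusted p = 0.600). Igkv4-57 stood at 91.5, 104, 45.2 and 96.8 CPM in HET and at 12.4, 54.9, 49.6 and 17.8 CPM in WT. HET replicate 3 lay below WT replicates 2 and 3, and the log2 fold change was 1.33 (SE 0.50, edgeR adjusted p = 0.621). Igkv10-96 stood at 187, 94.3, 223 and 168 CPM in HET and at 76.9, 142, 121 and 114 CPM in WT, with HET replicate 2 inside the WT range and a log2 fold change of 0.57 (SE 0.24, edgeR adjusted p = 0.654).

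Repeats of 1 pool differed far more in Igkv segments than in other genes. The median coefficient of variation between the 4 repeats was 80.3% in HET and 80.5% in WT over the 76 segments, against 25.2% and 25.6% over all genes tested. Over 4394 other genes with levels in the middle range of the Igkv segments it was 25.3% and 25.8%. The Ighv segments (57 tested) varied as widely, at 87.7% and 87.4%. As background, a B cell as a rule expresses a single rearranged light chain.

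By family, Igkv4 held the largest mean share (19.6%, 32 members), followed by Igkv8 (18.9%, 9 members), Igkv1 (13.1%, 13 members) and Igkv10 (8.77%, 3 members). Igkv4 held 18.5 ± 8.19% in HET and 20.6 ± 3.31% in WT (SD, n = 4 each). Igkv8 held 61.6, 13.6, 7.44 and 5.08% in HET and 17.0, 10.7, 4.56 and 30.9% in WT. These shares include its member Igkv8-30, which held 38.1% in HET replicate 1 and 25.8% in WT replicate 4. Igkv1 held 11.2 ± 2.89% in HET and 15.0 ± 5.33% in WT (SD, n = 4 each), with p = 0.229 by the exact two-sided permutation test. Of the 11 families with a mean share of at least 2%, none passed after adjustment (adjusted p 0.911 to 0.914), and none was under 0.05 before it. A lone family could not have passed, since the smallest p adjusts to 0.314 over the 11.

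Along the locus, use was spread over its whole length. The 97 V genes lie 18.4 to 3166.3 kb from the J segments. The nearest 33 held 35.0% of Igkv counts on average (20.6 to 70.2%), the middle 32 held 23.2% (8.59 to 30.3%) and the farthest 32 held 40.7% (20.9 to 51.7%). Without Igkv8-30, which lies 604.9 kb from J, the other 32 of the nearest V genes held 28.2% of the remaining Igkv counts. Spearman's rho of mean share with distance was 0.04 across the 97 segments, which share libraries and are not independent. The 72 segments that point away from Igkc, and join by inversion, held 64.9% of counts (57.4 to 78.6%), and the 52 that point the same way held 35.1% (21.4 to 42.6%). Of the 97 V genes, 61 point away from Igkc and 36 the same way. Igkv8-30 and Igkv8-21, which led HET replicate 1, the library at 78.6%, both point away.

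**Figure D5:**
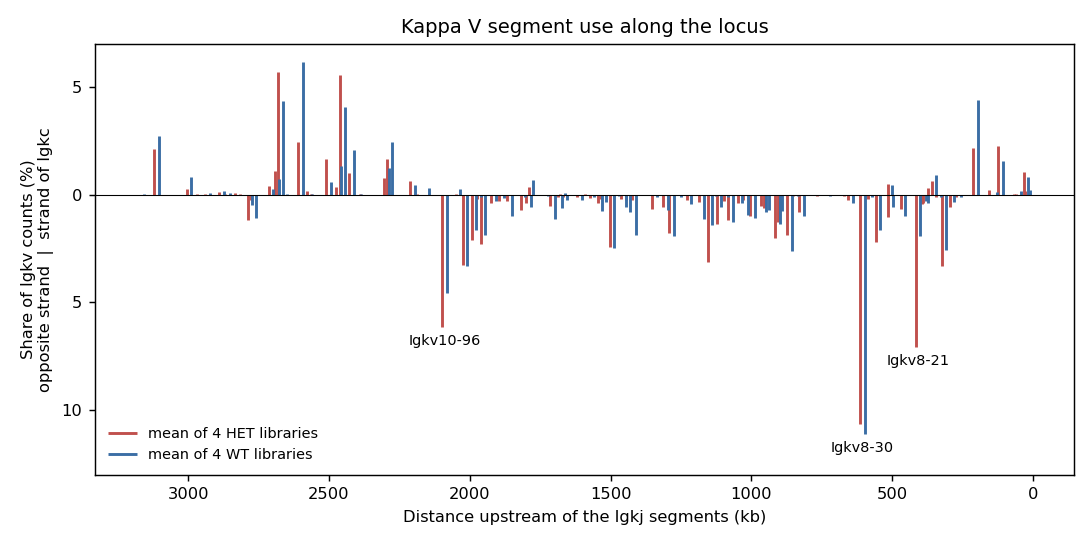
Mean share of Igkv counts (%) of each segment in HET and WT (n = 4 libraries each) against its distance from the J segments (kb), drawn upwards for the strand of Igkc and downwards for the opposite strand. Used segments occur along the whole locus, and Igkv8-30, at 604.9 kb, reaches furthest, with means of 10.7% in HET and 11.1% in WT.

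Likeness between libraries ranged widely both within and between groups. The Morisita-Horn index, which is 1 for equal shares and 0 for no shared segment, had a median of 0.484 over the 6 pairs within HET (0.102 to 0.802), 0.666 over the 6 pairs within WT (0.425 to 0.788) and 0.572 over the 16 pairs between groups (0.155 to 0.843). Pairs share libraries, and no test was run. The 7 pairs with HET replicate 1 had a median of 0.275 and the 3 HET pairs without it 0.796. Igkv8-30, Igkv8-21 and Igkv1-110 were chosen because they led HET replicate 1, so a rise in its likeness without them says little by itself. With these 3 left out, the pairs with HET replicate 1 had a median of 0.695 (0.511 to 0.729). The 3 HET pairs without that library had 0.809 and those within WT 0.784.

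Kappa segments were less dominated than the heavy chain V segments (Ighv) of the same libraries. The effective number was 24.1 ± 10.3 for Igkv and 7.52 ± 1.45 for Ighv (SD, n = 8), a difference of 16.6 ± 9.62. It was higher for kappa in 7 of 8 libraries (exact two-sided sign-flip permutation test, p = 0.0156, where the smallest possible is 0.00781). As the 8 libraries are repeats of 2 pools, this p measures the spread between sorts. In HET replicate 1 the difference was -0.107. Ighv1-81 led the heavy segments in the other 7 libraries, with 28.2 to 33.2% of Ighv counts. With it left out of the heavy set only, a choice made after seeing the data, heavy segments had an effective number of 16.1 ± 8.37. The difference was then 8.06 ± 7.38, higher for kappa in 8 of 8. It was only 0.614 in WT replicate 1, 0.682 in HET replicate 1 and 1.72 in WT replicate 4, and 3.48 to 18.5 elsewhere. In HET replicate 1, Ighv1-26 led with 32.9% and Ighv1-81 held 11.4%. Leaving out Ighv1-81 there lowered the heavy effective number from 4.85 to 4.06.

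Genes that serve kappa and lambda chains, the constant and Iglv segments, the B cell receptor partners Cd79a and Cd79b and regulators of light chain genes, were listed as 27 genes. Of these 25 were tested, with 8 higher and 17 lower in HET, a median log2 fold change of -0.07 and 0 called by edgeR (lowest adjusted p = 0.354). At an unadjusted edgeR p under 0.05 there were 2 of the 25, Cd79a and Cd79b, both lower. Of all genes, 3.88% were lower at that p, and a count of 2 is too small to compare with that share. Cd79b, a signaling chain of the B cell receptor, stood at 2530 ± 201 CPM in HET and 2988 ± 124 CPM in WT (SD, n = 4 each), with groups that did not overlap (as in 2.62% of all genes in that direction), a log2 fold change of -0.24 and edgeR adjusted p = 0.354.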

How the data were processed

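The authors sorted about 200 cells per library, prepared them by SMART-Seq2, aligned reads to GRCm38 (mm10) with HISAT2 2.2.1 and counted them per gene with HTSeq. They deposited whole-number counts and TPM values for the same 8 libraries. The annotation release, strand setting and handling of reads with several matches are not given in the sources used here. The deposited counts were used for shares, CPM and tests, and the deposited TPM only for a length-scaled ranking and alternatives. Groups followed the labels, and 0 columns of sample values were left without a sample.

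Counts of all genes entered edgeR 4.0.16 (R 4.3.3; filterByExpr, TMM, robust quasi-likelihood F-test) with group as the only term, and p-values were adjusted by Benjamini-Hochberg over all genes tested. Repertoire summaries and family shares were compared by exact permutation over the 70 arrangements of 4 against 4 libraries, families with a mean share of at least 2% only. Equal depth was set by analytical rarefaction. Alternatives used DESeq2 1.42.0, limma 3.58.1 on log2(TPM + pseudocount), other filters and scalings, left-out libraries and a replicate block. The main edgeR fit was tested on simulated counts with the same dispersion for all genes, not at the wider spread of the Igkv segments.

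Segments named are the 12 with the highest mean share, the leader of each library, any called by edgeR or else the 3 with the lowest p in each direction, the 3 that stood furthest above all other libraries in 1 library, and the light chain constant and Iglv segments. The members and lists were chosen with earlier results of these data known. Sequences and coordinates are from GENCODE M21 on GRCm38.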

Additional observations from a re-analysis of the deposited data

Results flagged for a closer look

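Within each group of 4, a library was marked where its gap to the nearest other library exceeded Dixon's 95% critical value. Of 68 groups of 4 values, 11 held such a library, where a rate of 1 in 20 would give about 3.4. Some segments were named for a low p or for standing apart in 1 library, so that rate does not hold for them. The 68 groups share the same 8 libraries and are not independent, and 8 of the 11 were HET replicate 1.

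In HET replicate 1 the Igkv share of all counts was 0.738% (0.1996 to 0.237% in the other HET libraries), the effective number of segments was 4.75 (27.1 to 30.9), the leading segment held 38.1% (8.54 to 9.69%), and kappa minus heavy effective number was -0.107 (20.8 to 23.5). The Igkv8 family held 61.6% there (5.08 to 13.6%), Igkv8-30 alone 38.1% (0.209 to 2.21%), Igkv12 1.39% (5.67 to 6.11%) and Igkv5 1.23% (4.33 to 4.91%). Jchain in the same library was at 1576 CPM, and the part of antibody-secreting cells in these values was not tested.

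Igkv2-116 held 0.484% in HET replicate 2 (0.0448 to 0.0913% in the other HET libraries). Igkv4-68 held 0.796% in HET replicate 3 (0 to 0.0825%). WT replicate 1 held 85.3 segments at equal depth (80.4 to 80.7 in the other WT libraries).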

How the results depend on the processing

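No single segment was called in any alternative except Igkv4-79, the 1 segment called without HET replicate 1 and WT replicate 4 (chosen after seeing the data). These libraries held its highest HET level and its lowest WT level. No p of the 5 repertoire summaries is read as stability, since the smallest possible is 0.1 for 3 against 3 libraries and 0.125 for 4 pairs under the block, and a lone family without 1 library cannot go below an adjusted p of 0.314. Leaving out those 2 libraries turned the HET minus WT difference of the Igkv share of all counts to -0.0288, of the kappa share to -3.32 and of the effective number to 0.290, and the log2 fold change of Igkv1-110 to -0.47, Igkv10-94 to 0.18, Igkv8-21 to -0.053 and Igkv8-30 to -2.29. Leaving out 1 library in turn gave differences of -0.0345 to 0.145 (Igkv share), -2.92 to 8.48 (kappa share), 0.414 to 3.05 (segments at equal depth), -5.90 to 4.59 (effective number), -3.89 to 7.60 (leading share) and 15.4 to 19.0 (kappa minus heavy), with 0 segments called. Family differences that changed sign ran from -4.07 to 1.92 (Igkv4), -7.06 to 11.8 (Igkv8), -0.892 to 3.27 (Igkv10), -0.194 to 3.05 (Igkv9), -1.03 to 0.650 (Igkv12), -0.217 to 1.102 (Igkv5) and -0.563 to 0.836 (Igkv2). Without 1 library the log2 fold change of Igkv8-21 was 0.034 to 4.39. Log2 fold changes that changed sign ran from -0.33 to 1.76 (Igkv1-110), -0.42 to 0.17 (Igkv1-135), -0.43 to 0.20 (Igkv10-94), -0.20 to 0.39 (Igkv4-72) and -3.14 to 2.11 (Igkv8-30). With Igkv8-30 left out, the Igkv2 family gave -0.128, the effective number -8.07 and the leading share 8.57, neither of the latter passing. On log2(TPM + 1), with or without a filter, Igkv8-21 gave -1.63 and Igkv8-30 -1.32, and on log2(TPM + 0.1) -3.27 and -1.33. Deviations of same-numbered HET and WT libraries correlated at -0.05 to 0.01 over the genes tested. Differently numbered libraries were not compared, so this check shows no pairing by replicate number but cannot exclude it. With the number as a block, edgeR called 0 of the segments, and Igkv8-21 gave -0.28 and Igkv8-30 -0.54. The causes of these changes were not tested, and no alternative was left out.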
